A study of Mus musculus with 22 samples.

Results

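The genes described here encode the transforming growth factor beta (TGF-beta) ligands (Tgfb1, Tgfb2 and Tgfb3), their receptors (Tgfbr1, Tgfbr2 and Tgfbr3) and the latent TGF-beta binding proteins (Ltbp1, Ltbp2, Ltbp3 and Ltbp4). They were chosen by gene symbol, and all 10 were found among the 29367 genes of the count table. The mRNA came from mice that carried an HA-tagged Rpl22 ribosomal protein (B6J.129(Cg)-Rpl22tm1.1Psam/SjJ) and the Cre strain B6.Cg-Tg (GFAP-Cre), line 73.12Mvs/J, in which a mouse Gfap promoter drives Cre, and their genotype is otherwise labelled WT. All mice were 3 to 4 months old and had received microbeads in 1 eye, which raises the intraocular pressure (IOP), so that the tag, the Cre line and the injection are shared by every library used here. The optic nerve head (ONH, the unmyelinated start of the nerve) and the optic nerve proper (ONP, the myelinated nerve next to it) were taken 7 or 30 days later, and HA-tagged ribosomes were pulled down to enrich astrocyte mRNA. There were 4 libraries of the ONH and 4 of the ONP at 7 days and 7 of each at 30 days, which makes 22, and every library pooled the tissue of 4 mice (2 males and 2 females). Untreated mice were not analysed here, so the day comparisons set 30 days against 7 days after injection. Libraries held between 16292489 and 33307092 counts, at which 3 counts equal 0.0901 to 0.184 CPM of the library total. The levels given below are CPM after TMM normalisation.

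TGF-beta is secreted in a latent form, held by its own propeptide and in most tissues linked to a latent TGF-beta binding protein (LTBP), which anchors the complex to fibronectin and to fibrillin microfibrils of the extracellular matrix. Integrins, thrombospondin and proteases release the ligand, which binds the type II receptor Tgfbr2. Tgfbr2 then activates the type I receptor Tgfbr1, and the signal passes through Smad2, Smad3 and Smad4 to target genes of the matrix and the cell cycle. In the optic nerve head, TGF-beta2 is the ligand most often studied in glaucoma, where it is linked to remodelling of the matrix by astrocytes and lamina cribrosa cells.

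The label astrocyte was checked against its markers first. All 10 astrocyte markers were found in every library, led by Gfap, the intermediate filament of astrocytes, at a mean of 13043 CPM in the ONH at 7 days and 18167 CPM in the ONP at 30 days. Astrocyte markers summed to means of 20161 CPM in the ONH and 19966 CPM in the ONP at 7 days and 21623 and 26350.3 CPM at 30 days. The libraries also held RNA of other cells, and the mean sum of oligodendrocyte markers was above that of astrocyte markers in every group. Oligodendrocyte markers (11 genes, led by Mbp, none at 0) summed to 22292, 18700, 23484 and 35831 CPM in ONH libraries 1, 3, 5 and 6 at 7 days and to 82086, 89073, 91405 and 107500 CPM in ONP libraries 1, 2, 5 and 6. At 30 days they lay between 13556 and 41351 CPM in the ONH (median 18774) and between 25947 and 84278 CPM in the ONP (median 53733). Markers of microglia and macrophages (12 genes, led by C1qb) summed to 1296, 201, 1102 and 2071 CPM in the ONH and 1818, 2161, 1576 and 2621 CPM in the ONP at 7 days. At 30 days they ranged from 182 to 4010 CPM in the ONH (median 518) and from 252 to 4643 CPM in the ONP (median 406). Their highest sums, over 3000 CPM, were those of ONH replicate 7, ONP replicate 5 and ONP replicate 7 at 30 days. Photoreceptor markers (10 genes) summed to 165, 177, 1743 and 5947 CPM in the ONH and 18.3, 52.8, 134 and 9.71 CPM in the ONP at 7 days, and had medians of 244 and 4.76 CPM at 30 days (113 to 2480 CPM and 2.74 to 51.7 CPM). Over 1000 CPM of them were held by ONH libraries 5 and 6 at 7 days and ONH replicate 4 at 30 days. Markers of fibroblasts and meninges (12 genes, led by Islr in 3 groups and by Fbln1 in the ONP at 30 days) summed to 1866, 1444, 1290 and 3423 CPM in the ONH and 835, 791, 414 and 1157 CPM in the ONP at 7 days, with medians of 1274 CPM (824 to 1616) and 411 CPM (293 to 928) at 30 days. In such pooled tissue, fewer cells of a type and less RNA per cell cannot be told apart, and the part that other cells play in the results was not tested beyond the values given.

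Levels were compared between genes as CPM per kilobase of merged exon. Tgfb2 was the most abundant of the 10 in the ONH, at 108 ± 25.0 CPM per kb (SD, n = 4) at 7 days and 128 ± 26.4 CPM per kb (n = 7) at 30 days, and its range lay above that of Tgfb3 at both times. Tgfb3, also a ligand, followed at 51.6 ± 25.0 and 53.8 ± 12.7 CPM per kb, again without overlap with the next gene. In the ONP the order of these ligands was not settled. Tgfb2 stood at 55.2 ± 9.53 and Tgfb3 at 36.1 ± 9.78 CPM per kb at 7 days, and at 30 days Tgfb3 came first with 49.4 ± 4.54 against 44.8 ± 14.2 CPM per kb for Tgfb2, with overlapping ranges at both times. The level of Tgfb2 relative to Tgfb3 was thus 2.47 ± 0.69 in the ONH and 0.90 ± 0.26 in the ONP at 30 days (n = 7 each). With the longest transcript as length in place of merged exons, Tgfb2 came first in the ONP at 30 days too.

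**Figure D1:**
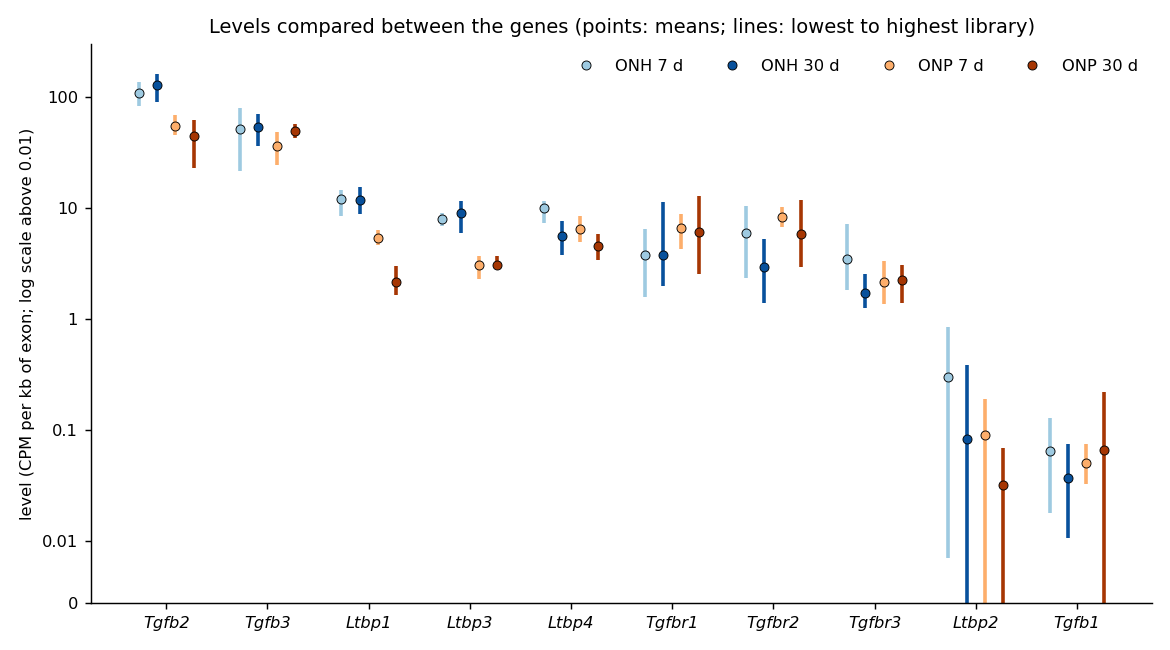
Mean level of each gene in CPM per kb of exon (vertical axis, log scale above 0.01) in the 4 groups (points), with lines from the lowest to the highest library. Tgfb2 and Tgfb3 stand above all other genes, and Ltbp2 and Tgfb1 lie near 0.

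The third ligand, Tgfb1, was close to the detection limit. It had between 0 and 28 counts per library, 8 of 22 libraries had 3 counts or fewer, and it passed the filter on low counts in no comparison. Its highest level was 1.12 CPM, in ONP replicate 7 at 30 days. Ltbp2, an LTBP relative that binds fibrillin but not latent TGF-beta and whose human gene is mutated in congenital glaucoma, was as sparse. It had 0 counts in 6 of 22 libraries and reached 122 counts (6.95 CPM) in ONH library 5 at 7 days, with 0.22, 0.060 and 2.58 CPM in ONH libraries 1, 3 and 6. The remaining genes lay between. In the ONH, Ltbp1, Ltbp3 and Ltbp4 had 11.96 ± 2.95, 7.97 ± 0.98 and 9.98 ± 1.84 CPM per kb at 7 days, and neighbours in this order overlapped. The receptors followed with 5.97 ± 3.49 (Tgfbr2), 3.81 ± 2.06 (Tgfbr1) and 3.47 ± 2.56 CPM per kb (Tgfbr3), again with overlap. In the ONP at 30 days the middle of the order was different: Tgfbr1 (6.07 ± 4.35), Tgfbr2 (5.78 ± 3.48) and Ltbp4 (4.56 ± 0.81) came before Ltbp3 (3.08 ± 0.30), Tgfbr3 (2.25 ± 0.67) and Ltbp1 (2.17 ± 0.47 CPM per kb), and among these 6 the ranges of neighbours overlapped.

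The comparison of the 2 regions asks which of these genes differ between astrocytes of the ONH and those of the ONP after microbead injection. Without untreated mice, a difference between the regions cannot be tied to the raised IOP. Tgfb2, Ltbp1 and Ltbp3 were higher in the ONH at both times, and Tgfbr2 was lower in the ONH at 30 days. Of the 8 genes tested at 30 days, 3 were called higher, against 21.8% of all genes tested, and 1 was called lower, against 20.0% (41.8% were called in either direction). Of the 9 genes tested at 7 days, 3 were called higher, against 6.34% of all genes (13.2% in either direction), and 0 lower. For each of the 3 higher genes, every ONH library lay above every ONP library at both times, which held for 9.26% of all genes at 30 days and 9.89% at 7 days.

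**Figure D2:**
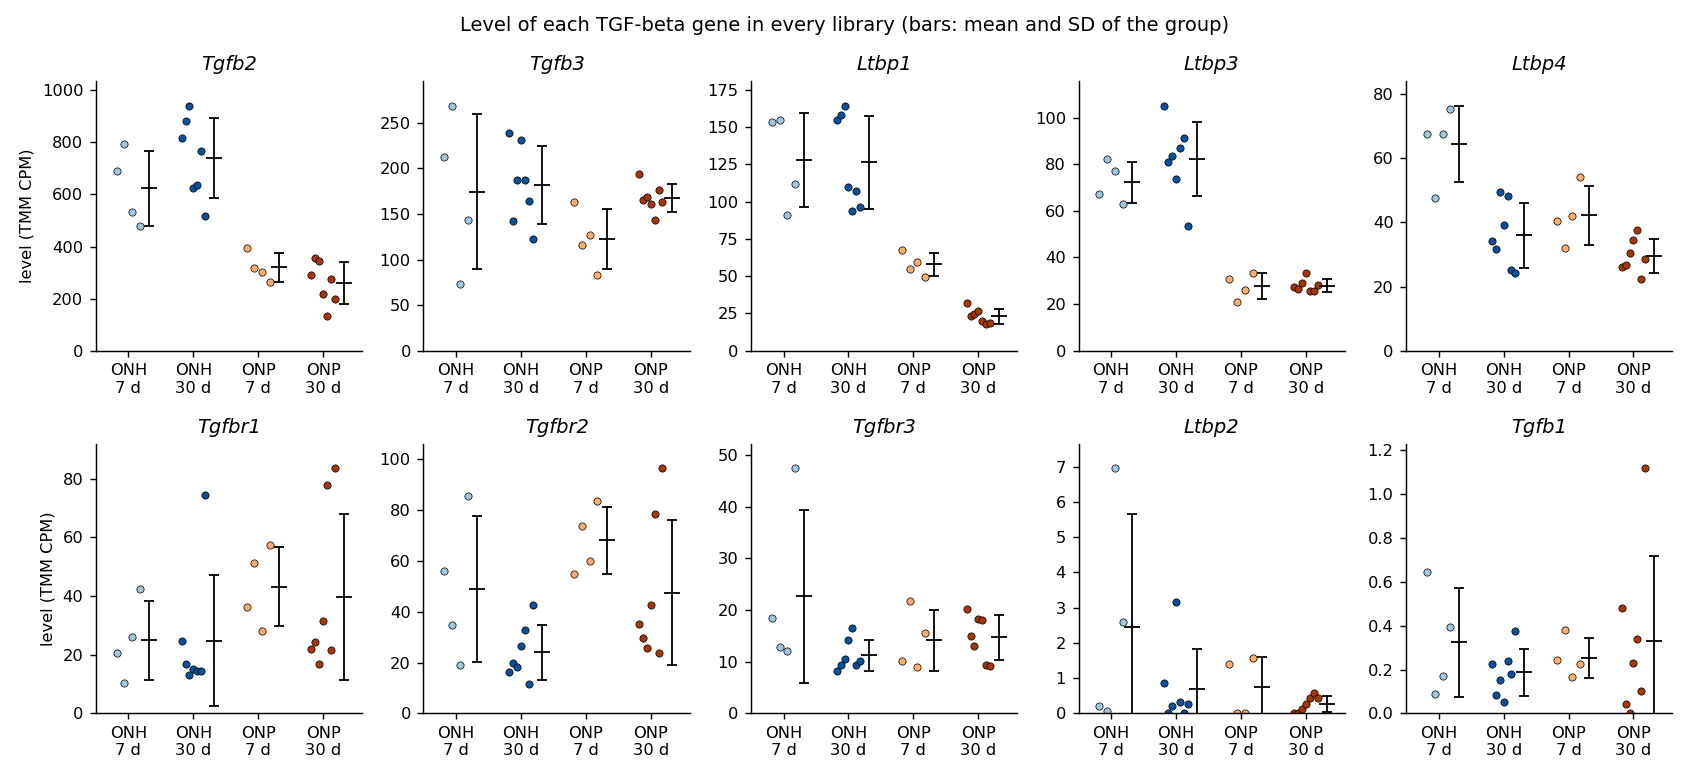
Level of each gene in TMM-normalised CPM (vertical axes, each from 0) in every library (points) of the 4 groups, with the group's mean and SD beside them. Tgfb2, Ltbp1 and Ltbp3 separate the ONH from the ONP at both times, and Ltbp1 alone also separates 7 from 30 days in the ONP.

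Tgfb2 lies on chromosome 1 (GRCm38, chr1:186622792-186705989, minus strand). At 7 days its level was 689, 794, 533 and 477 CPM in ONH libraries 1, 3, 5 and 6 and 396, 316, 301 and 265 CPM in ONP libraries 1, 2, 5 and 6. The lowest ONH library thus stood above the highest ONP library. The ONH was 1.98-fold higher (log2FC 0.99, SE 0.20, adjusted p-value 0.00985). At 30 days the level ran from 518 to 941 CPM in the ONH (median 767) and from 132 to 357 CPM in the ONP (median 276), a 2.84-fold difference (log2FC 1.51, SE 0.21, adjusted p-value 4.78e-05). The difference was 1.35 on the log2 scale without the 3 libraries richest in microglia markers (adjusted p-value 3.41e-05). Among libraries, with group means removed, Tgfb2 had its strongest Pearson's r with the summed markers of astrocytes (0.88), oligodendrocytes (-0.88) and microglia (-0.87), on the log2 scale. With oligodendrocyte markers, r was -0.61 for Ltbp1 and -0.42 for Ltbp3. The part of cell makeup in the region differences was not tested. Tgfb3, by contrast, had 174 ± 84.7 CPM in the ONH and 122 ± 33.1 CPM in the ONP at 7 days (adjusted p-value 0.348), and 182 ± 42.9 and 167 ± 15.4 CPM at 30 days (adjusted p-value 0.521), with overlapping groups.

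Ltbp1, which binds and anchors latent TGF-beta, lies at chr17:75005568-75392512 (plus strand) and showed the largest fold difference between the regions among the genes tested at 30 days. Its level at 7 days was 153, 155, 91.1 and 112 CPM in ONH libraries 1, 3, 5 and 6 and 67.4, 55.0, 59.4 and 49.7 CPM in ONP libraries 1, 2, 5 and 6. The ONH was 2.24-fold higher (log2FC 1.17, SE 0.21, adjusted p-value 0.00460). At 30 days it ran from 94 to 165 CPM in the ONH (median 109.8) and from 17.7 to 32.1 CPM in the ONP (median 23.1). Within the ONH, replicates 1, 2 and 3 stood at 155, 158 and 165 CPM and replicates 4 to 7 between 94 and 109.8 CPM, all above the ONP. The difference was then 5.44-fold (log2FC 2.44, SE 0.18, adjusted p-value 1.39e-07).

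Ltbp3, which also binds latent TGF-beta and is best known from bone and teeth, lies at chr19:5740904-5758532 (plus strand). Its level at 7 days was 67.2, 82.2, 76.9 and 62.8 CPM in ONH libraries 1, 3, 5 and 6 and 30.8, 20.7, 26.1 and 33.2 CPM in ONP libraries 1, 2, 5 and 6. At 30 days it ran from 53.7 to 105 CPM in the ONH (median 83.7) and from 25.6 to 33.4 CPM in the ONP (median 27.2). The groups did not overlap at either time. The ONH was 2.65-fold higher at 7 days (log2FC 1.40, SE 0.20, adjusted p-value 0.00125) and 2.93-fold higher at 30 days (log2FC 1.55, SE 0.12, adjusted p-value 2.56e-07). The library kit keeps no strand, so reads of any of these genes cannot be told apart from reads of a gene that overlaps it on the opposite strand.

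Ltbp4, the LTBP that also takes part in elastic fibre assembly, was not called between the regions: it stood at 64.5 ± 11.9 CPM in the ONH and 42.2 ± 9.14 CPM in the ONP at 7 days (adjusted p-value 0.0753, or 0.0394 with scaling by library size only) and at 36.0 ± 10.2 and 29.5 ± 5.21 CPM at 30 days (adjusted p-value 0.199). The share of Ltbp1 in the summed length-scaled level of the LTBPs was 44.4% ± 5.85 in the ONH and 22% ± 4.03 in the ONP at 30 days, and that of Ltbp4 was 21% ± 4.77 and 46.2% ± 4.6 (SD, n = 7 each). At 7 days the shares lay closer together, with 39.3% ± 7.80 and 36.3% ± 6.13 for Ltbp1 and 33.2% ± 6.97 and 43% ± 4.87 for Ltbp4 (n = 4 each). Markers of astrocytes and of other cells differed between the regions as well. Of 10 astrocyte markers, 1 was called higher and 3 lower in the ONH at 30 days, and 2 lower at 7 days. Aqp4 (-1.65 at 7 days and -1.43 at 30 days) and Slc1a2 (-0.70 and -0.79) were lower at both times. At 30 days Gfap was lower (-0.50) and S100b higher (0.76). Over all genes, 21.8% were called higher and 20.0% lower in the ONH at 30 days, and 6.34% were called higher at 7 days. In the ONH, 10 of 10 photoreceptor markers were called higher at 30 days and 9 of 10 at 7 days. Of 10 markers of pigment cells (led by Rlbp1), 8 were called higher at each time. Of 12 fibroblast and meningeal markers, 3 were called higher at 30 days, a share near that of all genes, and 2 at 7 days. Of 9 neuron markers tested, 4 were called higher in the ONH at each time and 1 lower at 30 days. Their median log2FC was 1.17 at 30 days and 1.61 at 7 days. Oligodendrocyte markers went the other way, with 10 of 11 called lower in the ONH at 30 days and 11 of 11 at 7 days. Of 7 markers of oligodendrocyte precursors, 6 were called lower in the ONH at 30 days and 3 at 7 days. Without the ONH libraries richest in photoreceptor markers, the log2FC was 1.21 for Tgfb2, 1.41 for Ltbp1 and 1.42 for Ltbp3 at 7 days (2 ONH libraries left) and 1.54, 2.48 and 1.58 at 30 days, all with adjusted p-values under the threshold. The ONH libraries left still held more of these markers than any ONP library. They had 165 and 177 CPM against 9.71 to 134 CPM at 7 days. At 30 days they had 113 to 460 CPM against 2.74 to 51.7 CPM. The part of photoreceptor RNA was thus not tested by this step.

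The promoters of these 3 genes are printed because all 3 were higher in the ONH at both times. RefSeq starts (GRCm38.p6) were found for 8 of the 10 genes, and the 250 bases before each start are given 5′ to 3′, with the SMAD-binding letters CAGAC, or GTCTG for the same element on the other strand, in capitals. Ltbp1 has 2 starts.
Tgfb2, chr1:186705990-186706239, minus strand: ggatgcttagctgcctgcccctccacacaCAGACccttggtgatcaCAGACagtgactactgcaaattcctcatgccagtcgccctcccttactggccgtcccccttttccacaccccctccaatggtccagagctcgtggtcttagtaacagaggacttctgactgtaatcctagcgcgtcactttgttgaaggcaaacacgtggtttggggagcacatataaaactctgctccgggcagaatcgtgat
Ltbp1, chr17:75005279-75005528, plus strand: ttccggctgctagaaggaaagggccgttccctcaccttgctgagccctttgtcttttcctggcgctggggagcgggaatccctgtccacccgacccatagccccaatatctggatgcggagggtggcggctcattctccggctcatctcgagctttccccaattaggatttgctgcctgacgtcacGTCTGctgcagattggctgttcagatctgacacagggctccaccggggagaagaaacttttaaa
Ltbp1, chr17:75178531-75178780, plus strand: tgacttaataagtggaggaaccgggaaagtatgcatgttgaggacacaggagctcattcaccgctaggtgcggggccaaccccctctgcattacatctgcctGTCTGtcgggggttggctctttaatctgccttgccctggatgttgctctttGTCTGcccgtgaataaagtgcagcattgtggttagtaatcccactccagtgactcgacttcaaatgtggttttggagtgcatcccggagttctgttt
Ltbp3, chr19:5740650-5740899, plus strand: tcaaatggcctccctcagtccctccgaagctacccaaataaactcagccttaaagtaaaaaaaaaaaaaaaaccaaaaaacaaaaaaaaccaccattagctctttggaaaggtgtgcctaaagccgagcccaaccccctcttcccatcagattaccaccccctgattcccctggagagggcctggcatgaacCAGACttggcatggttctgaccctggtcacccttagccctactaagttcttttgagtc
The element occurs 2 times before the start of Tgfb2, 1 and 2 times before those of Ltbp1 and 1 time before that of Ltbp3. It was also present in 42.2% of all 32851 promoter stretches of this length, and such short matches are a description of the sequence only. A GC box, searched as GGGCGG on both strands, occurred in none of these 4 stretches and in 32.7% of all promoters. The AP-1 letters TGACTCA, also on both strands, occurred in none of the 4 and in 4.46% of all promoters. The SMAD element was not particular to these 3 genes: it also occurred 2 times before the start of Ltbp2, 1 time before that of Tgfbr2, which was lower in the ONH, and 1 time before 1 of the 2 starts of Tgfbr1. It did not occur before the starts of Tgfb1 and Ltbp4.

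**Figure D3:**
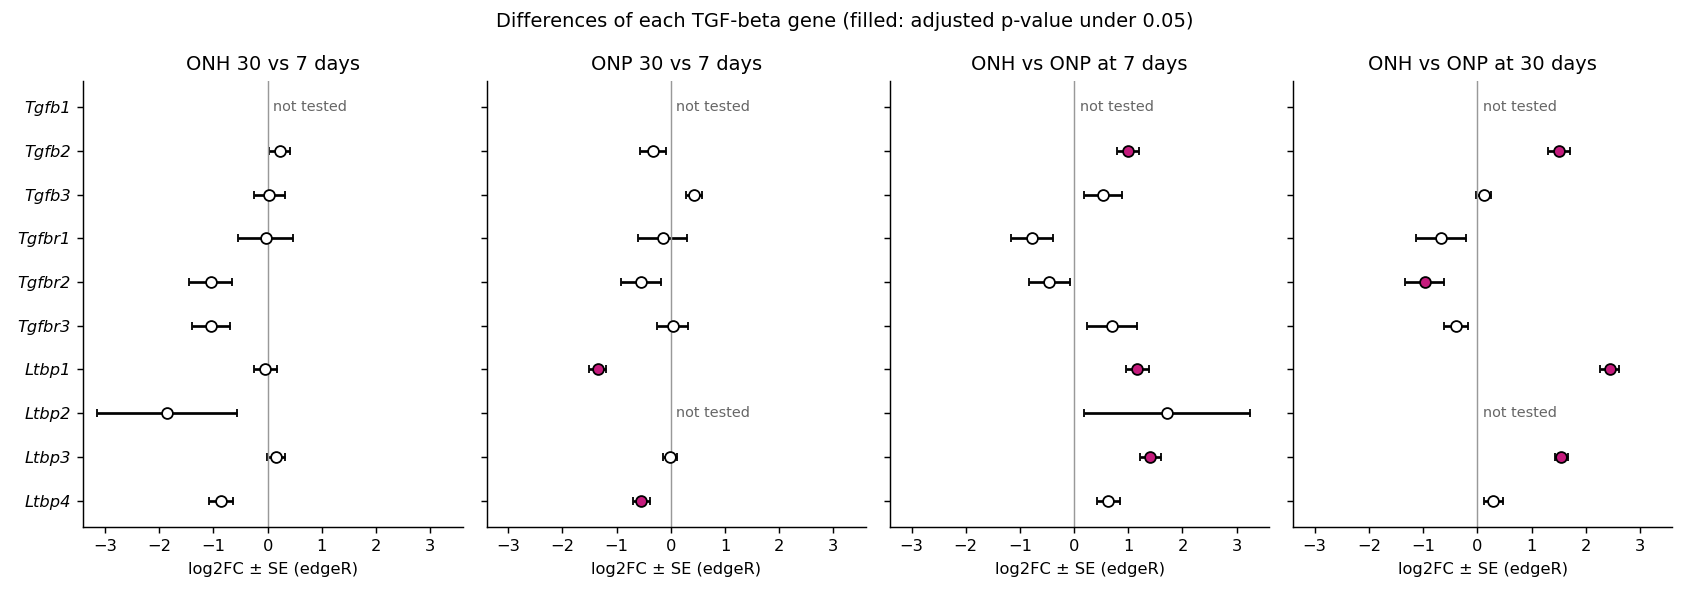
Log2FC of each gene (horizontal axis, points with SE) in the 4 comparisons, from the edgeR fits over all genes, with filled points where the adjusted p-value passed 0.05. Ltbp1 reaches 2.44 between the regions at 30 days and fell by 1.35 between the days in the ONP.

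The comparison of 30 vs 7 days asks what changed in a region between these days, over which the study describes a falling IOP. In the ONP, Ltbp1 and Ltbp4 fell, and no gene rose. These were 2 of the 8 genes tested, against 9.21% of all genes called lower and 17.0% called in either direction. Ltbp1 fell from 67.4, 55.0, 59.4 and 49.7 CPM at 7 days to between 17.7 and 32.1 CPM at 30 days (median 23.1). The highest library at 30 days lay below the lowest at 7 days, which held for 5.79% of all genes. The fall was 2.55-fold (log2FC -1.35, SE 0.16, adjusted p-value 0.000548). Ltbp4 went from 40.4, 32.1, 42.0 and 54.2 CPM at 7 days to between 22.2 and 37.5 CPM at 30 days (median 28.7), with overlap (log2FC -0.55, SE 0.16, adjusted p-value 0.0369). The call of Ltbp4 was lost when any 1 of 8 of the 11 libraries was left out: ONP library 1, 5 or 6 at 7 days or replicate 1, 2, 3, 6 or 7 at 30 days gave adjusted p-values of 0.0549 to 0.159. It was also lost with scaling by library size only, with no filter beyond 1 count, by limma and with all 4 groups in one fit. Markers of endothelium (10 genes) and of oligodendrocytes (11 genes) fell in the same comparison, with 7 called lower in each. Fibroblast and meningeal markers had a negative log2FC for 10 of 11 tested (median -0.65), with 1 called lower.

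The other genes of the ONP did not pass the threshold. Tgfb3 stood at 163, 116, 127 and 82.8 CPM at 7 days and between 143 and 194 CPM (median 165) at 30 days (log2FC 0.42, SE 0.15, adjusted p-value 0.0718). It passed by DESeq2 (0.45), with scaling by library size only (0.54), with at least 10 counts in every library (0.45), without ONP replicates 5 and 7 at 30 days, which held the most microglia markers (0.51, adjusted p-value 0.0414), without ONP library 1 at 7 days (0.62, adjusted p-value 0.0159) and without ONP replicate 5 at 30 days (0.49, adjusted p-value 0.0421). Tgfb2 went from a mean of 319 to 259.6 CPM (log2FC -0.33, SE 0.23, adjusted p-value 0.350). The level of Ltbp3 was 27.7 ± 5.49 CPM in the earlier group and 27.96 ± 2.73 CPM in the later one (adjusted p-value 0.943). Of the 8 genes tested, Ltbp1 alone had groups that did not overlap between the days.

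In the ONH, none of the 9 genes tested was called between the days, and none of all genes was (0%), although 2179 genes had an unadjusted p-value under 0.05. The 3 genes with such a p-value all had lower means at 30 days. Ltbp4 had 67.4, 47.5, 67.7 and 75.4 CPM at 7 days and between 24.3 and 49.5 CPM at 30 days (median 34.3), with only library 3 of the 7-day group inside the range of the 30-day group (log2FC -0.86, SE 0.22, adjusted p-value 0.189). DESeq2 called this difference (-0.88, adjusted p-value 0.0256), and over all genes it called 446. Tgfbr2 had 56.1, 34.9, 19.2 and 85.3 CPM at 7 days and between 11.5 and 42.8 CPM at 30 days (log2FC -1.05, SE 0.39, adjusted p-value 0.271). Tgfbr3, or betaglycan, a coreceptor that presents TGF-beta2 to Tgfbr2, had 18.5, 12.8, 12.1 and 47.4 CPM at 7 days and between 8.22 and 16.6 CPM at 30 days (log2FC -1.04, SE 0.35, adjusted p-value 0.243). ONH library 6 was the highest of its group for both receptors, and it also held the highest sums of fibroblast, photoreceptor and microglia markers at 7 days in the ONH. Without this library the log2FC was -0.64 for Tgfbr2 and -0.39 for Tgfbr3. The means of Tgfb2, Ltbp1 and Ltbp3 were 623, 128 and 72.3 CPM in the 7-day group, and 741, 126 and 82.3 CPM in the 30-day group (adjusted p-values 0.6253, 0.945 and 0.699).

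Whether the change over time differs between the regions was tested by an interaction over all 22 libraries, as the 30 vs 7 day change in the ONP minus that in the ONH. Of 9 genes tested, 1 was called, Ltbp1, with a negative difference, against 0.394% of all genes called lower and 0.543% in either direction. Its difference was -1.30 (SE 0.27, adjusted p-value 0.0321): the log2FC over time was -1.35 in the ONP and -0.04 (SE 0.21) in the ONH. The size of this difference was kept between -1.41 and -1.17 when each library was left out in turn, but the call was lost in 10 of 22 cases, with adjusted p-values of 0.0524 to 0.0954. These were without ONH library 1 or 6 at 7 days, ONH replicate 2 at 30 days, ONP library 1, 2, 5 or 6 at 7 days, and ONP replicate 2, 3 or 6 at 30 days. It was also lost without the 3 libraries richest in photoreceptor markers (-1.05, adjusted p-value 0.0697), with scaling by library size only, with no filter beyond 1 count and by limma. This fit treats the libraries as independent, although the study took the ONH and ONP from the same mice. With the 7 pairs of the same number at 30 days as blocks, a pairing the labels do not state, the difference of Ltbp1 was -1.29 (adjusted p-value 0.0132). Over all alternatives the adjusted p-value ranged from 0.00299 to 0.0954.

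Among the receptors, which make the cell responsive to the ligand, Tgfbr2 was lower in the ONH than in the ONP at 30 days. It ran from 11.5 to 42.8 CPM in the ONH (median 19.8) and from 23.9 to 96.3 CPM in the ONP (median 35.0), with overlap (log2FC -0.97, SE 0.35, adjusted p-value 0.0356). Leaving out ONH replicate 1, 2, 3 or 6 or ONP replicate 5 or 7 each took the adjusted p-value above the threshold, to between 0.0615 and 0.0935. With the replicate number as a block, which assumes that libraries of the same number came from the same mice, the adjusted p-value was 0.000252 (log2FC -0.91). At 7 days Tgfbr2 had 54.8, 73.5, 60.1 and 83.6 CPM in the ONP and was not called against the ONH (log2FC -0.46, SE 0.38, adjusted p-value 0.458).

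Tgfbr1, the kinase that phosphorylates Smad2 and Smad3, ran from 13 to 74.6 CPM in the ONH (median 15.2) and from 16.7 to 83.5 CPM in the ONP (median 24.5) at 30 days. The difference was not called (log2FC -0.67, SE 0.47, adjusted p-value 0.268), but it was with the replicate block (-0.69, adjusted p-value 0.0452), without ONH replicate 7 (-1.30, adjusted p-value 0.0128) and without the 3 libraries richest in microglia markers (-0.54, adjusted p-value 0.0472). ONH replicate 7 held the 74.6 CPM, the highest level of its group, so the direction of the shift without it is fixed by the choice. At 7 days Tgfbr1 had 20.7, 10.3, 26.1 and 42.4 CPM in the ONH and 36.2, 51.1, 28.0 and 57.3 CPM in the ONP (adjusted p-value 0.212). At 30 days both receptors spread more among replicates than Tgfb2 and Tgfb3 did. The coefficient of variation was 90.3% in the ONH and 71.6% in the ONP for Tgfbr1, 45% and 60.2% for Tgfbr2, and 20.7% and 31.6% for Tgfb2.

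The libraries with the most Tgfbr1 were those with the most RNA of microglia. Tgfbr1 stood at 83.5, 77.7 and 74.6 CPM in ONP replicate 7, ONP replicate 5 and ONH replicate 7 at 30 days, whose summed microglia and macrophage markers were 4643, 3698 and 4010 CPM. All other libraries of 30 days had at most 31.4 CPM of Tgfbr1 and at most 1525 CPM of these markers. The same ONP libraries held the most Tgfbr2 (96.3 and 78.5 CPM) and the least Tgfb2 at 30 days (198 and 132 CPM). Without these 3 libraries, both receptors were lower at 30 than at 7 days in the ONP (log2FC -0.89 with an adjusted p-value of 0.0168 for Tgfbr1, and -1.11 with 0.00222 for Tgfbr2), where they were not called with all libraries (-0.15 and -0.55). The direction of this shift is fixed by the choice, since the 2 ONP libraries left out were those with the most of both receptors at 30 days. It also leaves the ONP with 252 to 1259.6 CPM of microglia markers at 30 days against 1576 to 2621 CPM at 7 days. Between the regions at 30 days, the log2FC of Tgfbr2 was then -0.62 (adjusted p-value 0.0607) and that of Tgfbr1 -0.54 (adjusted p-value 0.0472). Among the 12 microglia markers, 1 was called between the regions at 30 days, P2ry12, which was lower in the ONH, and none was called between the days in either region.

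**Figure D4:**
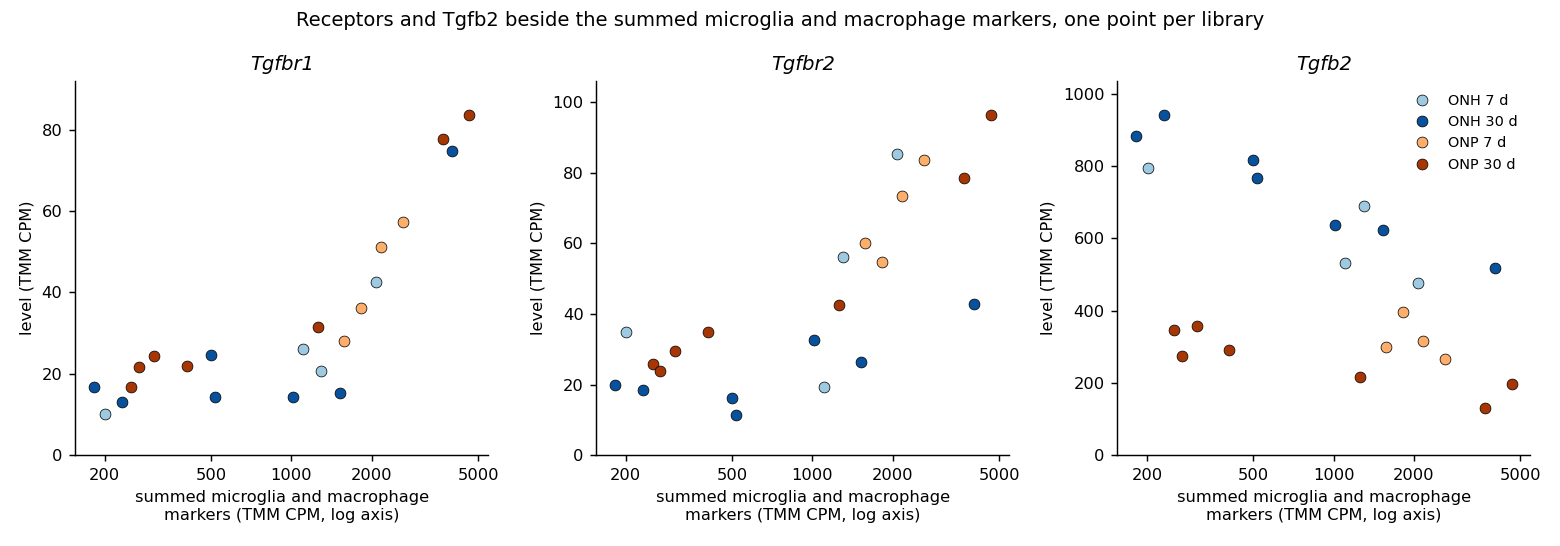
Levels of Tgfbr1, Tgfbr2 and Tgfb2 in CPM (vertical axes, from 0) against the summed level of 12 microglia and macrophage markers (horizontal axes, CPM on a log scale), with 1 point per library. The 3 libraries with over 3000 CPM of these markers have the 3 highest levels of Tgfbr1.

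Tgfbr3 was not called in any comparison. It had 11.2 ± 3.03 CPM in the ONH and 14.7 ± 4.38 CPM in the ONP at 30 days (adjusted p-value 0.154).

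The genes whose levels followed each member most closely were found by Pearson's r of log2 CPM over the 22 libraries, among 14231 genes with a mean of at least 1 CPM. These are descriptions, since the libraries share 4 groups and their cell makeup. Tgfb2 was most like Gria1, a subunit of AMPA glutamate receptors (r = 0.98), Dclk1 (0.97) and Gabrg3 (0.96). Ltbp1 was most like Gdf10, a secreted factor of the BMP family (0.97), Clrn1 (0.97) and the guidance factor Slit2 (0.96), and Ltbp3 was most like Tmem37, 2010111I01Rik and Smyd2 (0.96 each). Among the genes nearest to Tgfbr1 were Cd83 and Gpr34 (0.90 each), which are known from microglia. Among those nearest to Tgfbr2 were Man2b1, a lysosomal enzyme (0.93), and Serinc3 (0.91). The nearest genes were less close for Tgfbr3 (Gjb2, 0.87, Slc6a20a, 0.84, and Ogn, 0.84), Tgfb3 (Fam149a, 0.86, Gm20458, 0.84, and Fam20b, 0.81) and Ltbp4 (Zfp984, Lrrc32 and Foxp1, 0.81 each). For Tgfb1 (St8sia6, 0.83, Trim14, 0.76, and Cd300ld, 0.76) and Ltbp2 (Epb41, 0.80, Pdia5, 0.75, and Dpf3, 0.71) the counts were too few to read a pattern. Among the members themselves, Tgfb2, Ltbp1 and Ltbp3 had r between 0.86 and 0.90, and Tgfbr1 and Tgfbr2 0.73.

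The other genes of the pathway were followed in 7 lists. At 30 days 21.8% of all genes tested were called higher and 20.0% lower in the ONH, and at 7 days 6.34% were called higher and 13.2% in either direction, and the counts of each list stand against these shares. Of 15 genes of microfibrils and elastic fibres tested, 4 were called higher and 0 lower in the ONH at each time, with median log2FC of 0.92 at 7 days and 0.26 at 30 days, against 0.07 and -0.01 over all genes. At 30 days this share of calls was near that of all genes. Fibroblast and meningeal markers went the same way: 12 of 12 had a positive log2FC at 7 days (median 1.01) and 7 of 12 at 30 days (median 0.18), and their part in these values was not tested. Fbln5, which guides elastic fibre assembly, averaged 125 CPM in the ONH against 13.3 CPM in the ONP at 7 days (log2FC 3.26, adjusted p-value 0.000430) and 95.6 against 12.8 CPM at 30 days (2.90, adjusted p-value 2.28e-06). Mfap2, a microfibril glycoprotein, was also higher at both times (3.34 and 2.23), as was Loxl1, a crosslinker of elastin (1.69 and 1.66). Efemp2 was called at 7 days (0.92) and Fbn1, fibrillin-1 itself, at 30 days (0.76).

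Among proteins that bind TGF-beta or related ligands in the matrix, 4 of 11 tested were called higher in the ONH at 7 days (median log2FC 1.04) and 3 of 9 higher and 1 lower at 30 days (median 0.17). Fstl1 and Fstl3, which are follistatin-like proteins, were higher in the ONH at both times (1.51 and 1.81 at 7 days, 1.62 and 1.68 at 30 days), as did the proteoglycan Fmod (1.69 and 0.93). Fst was called at 7 days, where it had 1.46 CPM in the ONH and 0.010 CPM in the ONP. Htra1, a protease, was lower in the ONH at 30 days (-0.34).

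Of the activators of the latent ligand, 2 of 14 tested were called higher at each time and 2 lower at 30 days (median log2FC 0.01 and 0.05), so at 30 days the share called was below that of all genes in both directions. Thbs1, thrombospondin-1, which releases TGF-beta from its propeptide, averaged 23.3 CPM in the ONH against 1.06 CPM in the ONP at 7 days (log2FC 4.41, adjusted p-value 0.0166) and 8.76 against 1.25 CPM at 30 days (2.80, adjusted p-value 0.000433). Lrrc32, which holds latent TGF-beta on cell surfaces, was higher too (1.62 and 1.24). Nrros, which does so in microglia, was lower in the ONH at 30 days (-1.41), as was Mmp2 (-1.09).

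Of the known target genes, 8 of 27 tested were called higher and 1 lower in the ONH at 7 days, and 12 of 28 higher and 1 lower at 30 days. The median log2FC was 0.71 and 0.55, and over all genes 6.34% and 21.8% were called higher at these times. By their p-values these were led at 30 days by Cdkn2b, a cell cycle inhibitor (78.4 against 26.2 CPM, log2FC 1.57, adjusted p-value 3.06e-06), Col1a2 (2.44), Tnc (3.08) and Acta2 (2.24), and at 7 days by Tagln (2.64), Col1a2 (2.11), Acta2 (3.01) and Timp1 (1.40). The 1 target gene called lower was Vcan at both times (-1.65 at 7 days and -1.37 at 30 days). Col1a2 is also among the fibroblast markers and Acta2 among the mural markers used here, whose part in these values was not tested. The pathway lists overlap too: Thbs1 is also counted among the activators and Pmepa1 among the inhibitors.

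The lists of signalling inside the cell follow, beside 41.8% of all genes called in either direction at 30 days. Of 11 SMADs and transducers tested, 4 were called higher and 2 lower in the ONH at 30 days (median log2FC 0.26), with Smad4, the common partner of the signalling SMADs, at 32.5 against 21.7 CPM (0.58, adjusted p-value 0.00175), Runx1 (1.53) and Crebbp (0.38) higher and Tab1 (-0.30) lower, and 0 were called at 7 days (median 0.18). Of 13 inhibitors of the signal, 3 were called higher at 30 days, Smurf2 (0.72), Pmepa1 (1.32) and Ski (0.43), with a median of 0.09, and 1 at 7 days, Smad6 (1.79), with a median of 0.11. Of 10 related receptors and coreceptors, 3 were called higher and 2 lower at 30 days (median 0.23) and 2 higher at 7 days (median 0.20). Bambi, a decoy receptor, was higher in the ONH at both times (1.76 at 7 days and 1.45 at 30 days).

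**Figure D5:**
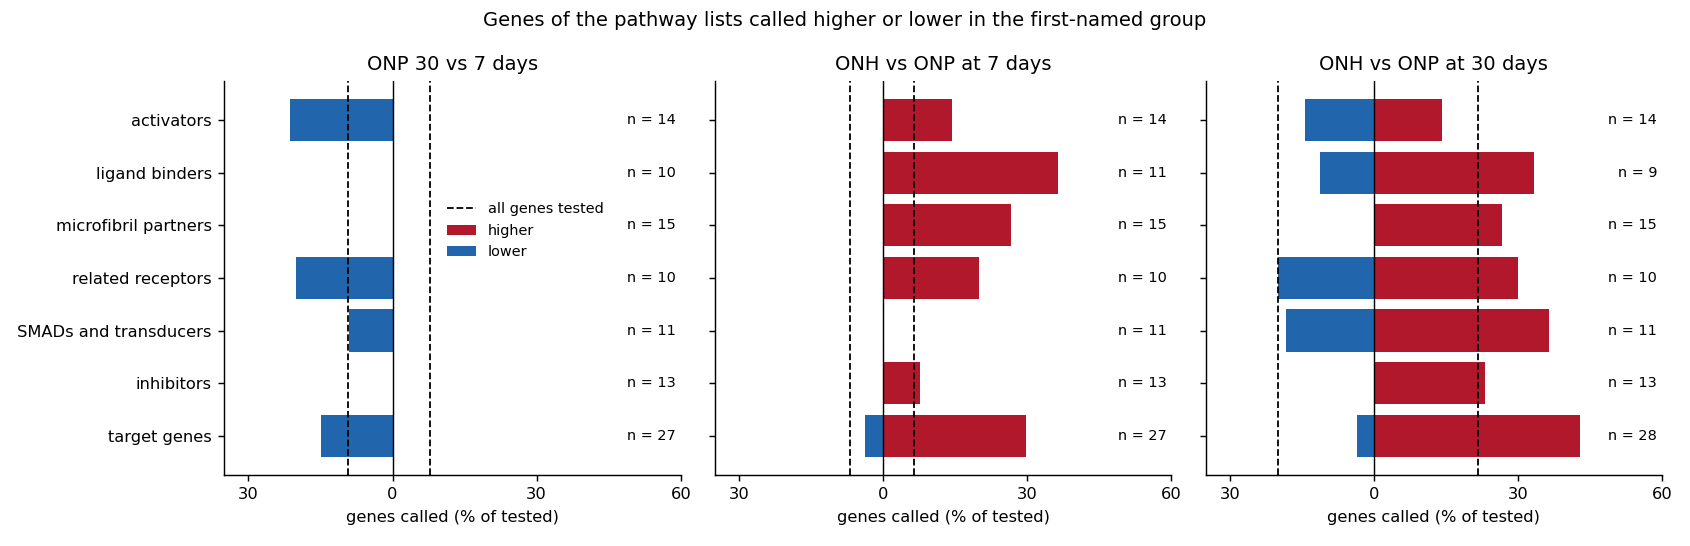
Share of the tested genes of each pathway list (horizontal axis, percent; n beside the bars) that was called higher (red) or lower (blue) in the first-named group, for 3 comparisons, with the shares over all genes tested as dashed lines. In the ONP, calls between the days are all toward lower levels at 30 days, and of the target genes 12 of 28 are called higher and 1 lower in the ONH at 30 days.

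Over time, the genes called in these lists in the ONP were all lower at 30 days, but most lists had few calls or none, beside 9.21% of all genes called lower and 17.0% in either direction. In the same comparison 7 of 10 endothelial markers and 3 of 9 mural markers were called lower. Of 11 fibroblast and meningeal markers, 10 had a negative log2FC (median -0.65) and 1, Islr, was called lower. The part of these markers in the values below was not tested. Of the target genes, 4 of 27 fell (median log2FC -0.41, against -0.01 over all genes, of which 9.21% were called lower): Cdkn2b from 47.3 to 26.2 CPM (-0.88, adjusted p-value 0.00448), Ctgf from 133 to 36.6 CPM (-1.89, adjusted p-value 0.0288), Acta2 (-1.18) and Col4a1 (-0.71). Of the activators, 3 of 14 fell (median -0.31), namely Itgb1 (-0.67), the tissue plasminogen activator Plat (-0.61) and the crosslinking enzyme Tgm2 (-1.06). Eng (-1.58), which is an endothelial coreceptor, and Cd109 (-0.59) fell among 10 related receptors (median -0.21), and Smad3 fell among 11 SMADs and transducers (-0.59, median -0.20). None was called among 13 inhibitors (median -0.16), 10 ligand binders (median -0.35) and 15 microfibril genes (median -0.44). In the ONH none was called in any list, with medians of -0.55 for the target genes and the activators, -0.85 for the microfibril genes, -0.63 for the ligand binders, -0.47 for the related receptors, -0.03 for the inhibitors and 0.18 for the SMADs, against -0.02 over all genes. Markers of other cells had lower levels in the same comparison, also without a call: the log2FC was negative for 12 of 12 fibroblast and meningeal markers (median -1.34), 10 of 10 endothelial markers (median -2.05) and 9 of 10 mural markers (median -1.15), and their part in these medians was not tested. None was called in the interaction.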

How the data were processed

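mRNA from HA-tagged ribosomes was sequenced from 22 libraries, and the authors deposited expected counts per gene, rounded to whole numbers and not normalised, and log2 values from a variance stabilizing transformation. Per the submitters' processing notes, STAR 2.6.1d, Salmon 0.14.2, R 4.1.0 and DESeq2 1.34.0 were used with mm10. By the study's methods, library preparation and sequencing were done for all samples together. Column names gave the sample at 30 days but only the group at 7 days, where libraries are named by their column number.

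Counts were compared in R 4.3.3 with the quasi-likelihood test of edgeR 4.0.16 after filterByExpr by group and TMM normalisation. P-values were adjusted by Benjamini-Hochberg over all genes tested, and 0.05 was the threshold. Each comparison was fitted on its own groups, and the interaction on all. CPM use TMM factors over the 22 libraries. Gene positions and exon lengths came from GENCODE M21 (GRCm38), which matched 29351 of 29367 genes, and promoters from RefSeq. Each replicate is a pool of mice, and p-values measure the spread between pools. At 30 days same-numbered ONH and ONP libraries came from the same mice, and all 7 pairs deviated together (r 0.108 to 0.547).

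Alternatives were DESeq2 1.42.0, limma 3.58.1 on the deposited log2 values, other scalings, filters and fits, and leaving out libraries. The members and gene lists were chosen with earlier results of these data known. All 10 members are named, and of each list at most the 4 called genes with the smallest p-values per comparison. Vcan is named in addition, for its opposite direction, and Pmepa1 for its place in more than 1 list. For each member, the 3 genes most like it were found, of which a few are not reported here. The fits were tested on simulated data.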

Additional observations from a re-analysis of the deposited data

Results flagged for a closer look

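In 3 of 40 groups of levels tested, 1 library stood apart from the rest of its group by Dixon's test, and chance flags about 1 in 20 groups. Tgfbr1 was at 74.6 CPM in ONH replicate 7 at 30 days, where the next library had 24.7 CPM, and this library also held 4010 CPM of microglia and macrophage markers and 224 CPM of pituitary markers. Tgfb1 was at 1.12 CPM (28 counts) in ONP replicate 7 at 30 days, with 0.48 CPM in the next library. Ltbp2 was at 3.17 CPM in ONH replicate 4 at 30 days, with 0.85 CPM in the next library.

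The change of Ltbp1 over time differed between the ONP and the ONH by -1.30 on the log2 scale in the interaction test, a call that was lost in 14 of the alternatives run and kept in 17.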

How the results depend on the processing

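Tgfb2, Ltbp1 and Ltbp3 in both comparisons of the regions and Ltbp1 in the ONP over time kept their direction under every alternative run, including each library left out, and their call under all but 1, the block on column numbers at 7 days (for Ltbp1). Libraries over 1000 CPM of photoreceptor markers or over 3000 CPM of microglia markers were left out as alternatives chosen after seeing the data. In the ONH over time, 1 member was called under DESeq2 and 1 with all 4 groups in one fit. In the ONP over time, 1 was called without a filter beyond 1 count, by limma and with all 4 groups in one fit, 5 without the microglia-rich libraries, and 1 to 3 with each library left out. At 7 days 5 were called without the photoreceptor-rich libraries, where Tgfb3 (0.97, adjusted p-value 0.0275) and Tgfbr1 (-1.49, adjusted p-value 0.0326) were added. In the interaction, 0 were called with scaling by library size only, without a filter beyond 1 count, by limma and without the photoreceptor-rich libraries, and 0 to 1 with each library left out. With the longest transcript as length, 6 members kept their rank in the ONP at 30 days.

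Directions turned only for differences that were not called. In the ONH over time these were Tgfb3 (-0.0010 by library size, -0.50 without photoreceptor-rich libraries, -0.22 to 0.31 with each library left out), Tgfbr1 (0.74 without photoreceptor-rich libraries, -0.64 to 0.36) and Ltbp1 (0.0029 without microglia-rich libraries, -0.17 to 0.059). In the ONP over time, Ltbp3 was at 0.010 by DESeq2, 0.010 by RLE, 0.10 by library size, 0.016 without a filter beyond 1 count, 0.013 with at least 10 counts in every library, 0.026 by limma, 0.012 with all 4 groups and 0.038 without microglia-rich libraries (-0.13 to 0.11 with each library left out), Tgfbr1 at -0.44 to 0.043 and Tgfbr3 at -0.13 to 0.32. Ltbp2 at 7 days was at -2.46 without photoreceptor-rich libraries. In the interaction, Tgfbr1 was at 0.047 by library size (-0.50 to 0.47 with each library left out) and Ltbp2 at -2.50 without photoreceptor-rich and -0.23 without microglia-rich libraries (-1.03 to 1.66).

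Over all genes, the ONH gave 446 calls over time by DESeq2, 2 without a filter, 1 by limma and 292 with all 4 groups (0 to 167 with each library left out), against 0. The ONP gave 1189 with all 4 groups (1439 to 3214) against 2638, the regions at 7 days 3211 by DESeq2 and 3785 with all 4 groups (1102 to 2379) against 1940, and the interaction 409 by DESeq2 and 50 without a filter (22 to 318) against 91. Without the photoreceptor-rich libraries, the interaction gave 441 calls and the ONH over time 28. Scaling by library size moved the median log2FC of all genes by 0.114 in the ONP over time (1934 higher and 966 lower against 1211 and 1427), by 0.114 at 7 days (1392 and 840 against 936 and 1004) and by 0.153 in the interaction (37 and 32 against 25 and 66), where RLE gave 26 and 47. With the replicate block at 30 days, 5 members were called in place of 4, with Tgfbr1 added, and 6717 genes in place of 6322. At 7 days the column numbers are not the replicate numbers of the labels, and of the 3 that occur in both regions 1 pair deviated together by r over 0.1 (0.0228, 0.0173 and 0.167). With the column number as a replicate block, an alternative chosen after seeing the data, 2 members were called in place of 3 (Ltbp1 at 1.01, adjusted p-value 0.0530) and 860 genes in place of 1940. With the 30-day pairs as a replicate block in the interaction, an alternative chosen after seeing the data, 1 member (Ltbp1) and 103 genes were called. Tgfb1 and Ltbp2 were too sparse at this depth to be compared firmly, with 3 counts or fewer in 8 of 22 libraries each.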

Other observations

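Tgfb1 was nearly absent even where RNA of microglia was plentiful, a pair of values chosen after they were seen. In ONP replicate 7 at 30 days, which had the most Tgfb1, it had 28 counts (1.12 CPM), while C1qb, a complement gene of microglia, stood at 1548 CPM and Tgfbr1 at 83.5 CPM. Over all libraries Tgfb1 had r = 0.66 with the microglia and macrophage markers, from few counts. Whether counts of Tgfb1 were lost on the way to the table was not tested.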
